A study of Mus musculus with 3 samples.

Results

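Contacts of the splicing regulator Tra2β with the 5' untranslated regions (5' UTRs) of mouse messenger RNAs, and with the sequence around their start codons, were measured in adult testis. The regions were the 5' UTR bases of the canonical transcript of every protein-coding gene in the GENCODE vM39 annotation of GRCm39, without bases that are coding sequence (CDS) in any transcript on the strand. Of 21770 protein-coding genes, 20779 had such a region. The maps came from iCLIP, in which proteins are fixed to bound RNA by ultraviolet light and the end of each cDNA marks the crosslinked nucleotide. There was 1 group of 3 biological replicates, in which testes of adult wild type mice were minced and irradiated and endogenous Tra2β was pulled down with a polyclonal antibody. The labels gave the cell type as mixed, and no library without the antibody or without Tra2β was used, so each comparison was made within a library.

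Tra2β is an SR-like nuclear protein that binds purine-rich RNA, with GAA at the core of its motif, and is known for activating the exons it binds. A 5' UTR runs from the capped transcript start to the start codon, is scanned by the small ribosomal subunit, and often holds upstream start codons and structured G+C-rich sequence. Its first exon has a cap in place of a 3' splice site, whereas later 5' UTR exons are defined by splice sites on both sides, as coding exons are. In testis many spermatid messenger RNAs are made early, stored and translated late, and transcript starts often differ from those of other tissues.

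The windows of 30 nt with the most crosslinks are shown for the 7 5' UTRs called more densely crosslinked than the CDS of their gene by the test below. They are also shown for the 5' UTRs of Lyar and Txndc2, which were among the 10 with the most crosslinks. The sequences are GRCm39 reference sequence, 5' to 3' on the transcribed strand, with GAA in capitals.
Cnot1: ttggtaaaGAAGAActGAAgacatttacag
Smcp: gtatgGAAatgctGAActaaGAAgagccca
Wbp11: ttttttttttttttaatGAAGAAgtaaatc
Wdr88: GAAggattctaaagatagcaggGAAgttat
Lipe: aGAAgtggggaccagcagtgataaactcac
Prdx6b: ctgttctacaGAAgatattgccaagatatt
Grcc10: agctcttttaGAAtttgtctagcaggtttt
Lyar: ctatatcaGAAaatttctaattatttaacc
Txndc2: gaccagccagcgttccaaccgacagcgcta
The Cnot1 window lay in exon 2 at chr8:96515474-96515503 on the minus strand and held 2, 2 and 13 crosslinks in replicates 1, 2 and 3, out of 50 over the whole 5' UTR. The Smcp window, in exon 1 at chr3:92496161-92496190 on the minus strand, held 23, 2 and 22 of 131 crosslinks. The Wbp11 window, in exon 2 at chr6:136803078-136803107 on the minus strand, held 6, 1 and 16 of 46. Both the Cnot1 and the Smcp window held 3 GAA and the Wbp11 window 2, whereas the Txndc2 window, at chr17:65949011-65949040 on the minus strand with 5, 0 and 36 of 126 crosslinks, held none. The windows of Wdr88 (chr7:34974824-34974853), Lipe (chr7:25098060-25098089) and Grcc10 (chr6:124718211-124718240) were also on the minus strand, and those of Prdx6b (chr2:80123003-80123032) and Lyar (chr5:38381986-38382015) on the plus strand. Because each window was picked for its crosslinks, its sequence is a description.

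Each crosslink stands for a unique cDNA. The libraries held 348033, 619571 and 488719 crosslinks in replicates 1, 2 and 3, and 4350, 3527 and 8832 of them lay in 5' UTRs. Replicate 2 was the deepest library and stood apart, with the fewest crosslinks in the 5' UTR and CDS and the most on the antisense strand, so values are given per library. Of the 5' UTRs, 16142 had no crosslink in any library, 2224 had 1, 319 had at least 10 and 113 had at least 20, while 603 were hit in all 3 libraries. The 15301 crosslinked 5' UTR nucleotides were mostly seen in 1 library, with 463 shared by 2 and 6 by all 3, so single nucleotides carry little depth. Markers of the labelled tissue were present, since all 10 spermatid markers and all 8 spermatocyte markers had exonic crosslinks in every library. The spermatid markers held 804, 207 and 1378 crosslinks, the Sertoli cell markers 61, 32 and 70, and the 4 globin and 5 liver genes none. In a mixed tissue, fewer cells of a type and less RNA per cell cannot be told apart, and no RNA level was measured here, so densities are compared between parts of the same genes.

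5' UTRs took a small share of all Tra2β crosslinks and were crosslinked at 0.316-fold the density of the CDS of the same genes, yet well above the sequence just upstream of them. Their bases make up 0.118% of the genome over both strands. They held 1.25% (95% Clopper-Pearson interval 1.21 to 1.29) of crosslinks in replicate 1, 0.569% (0.551 to 0.588) in replicate 2 and 1.81% (1.77 to 1.84) in replicate 3. These shares were 10.6-, 4.81- and 15.3-fold over the genome share. For comparison, the CDS was at 31.1-, 15.98- and 45.0-fold and the 3' UTR at 7.99-, 2.76- and 10.03-fold, counted the same way. The order CDS, 5' UTR, 3' UTR was the same in all 3 libraries.

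Per kb of 5' UTR there were 0.692, 0.561 and 1.41 crosslinks in replicates 1, 2 and 3, against 2.11, 1.92 and 4.29 per kb of CDS in the same genes. The log2 ratio of 5' UTR to CDS density was -1.66 ± 0.10 (SD, n = 3), below 0 in 3 of 3 libraries. With 3 libraries a two-sided sign-flip test cannot give a p below 0.25, so such ratios are given as values with their spread. Because pooled sums weight genes unequally, the ratio was also stratified by gene, which gave -1.42 ± 0.11 (SD, n = 3). Background was read the same way in other sequence. The 500 nt upstream of the transcript start had 0.0591, 0.105 and 0.0778 crosslinks per kb, the antisense strand of the 5' UTR 0.0345, 0.118 and 0.0423, and the first intron 0.127, 0.213 and 0.141. The 5' UTR thus exceeded the upstream sequence 11.7-, 5.35- and 18.1-fold and the first intron 5.47-, 2.63- and 9.97-fold. The margin was narrowest in replicate 2 in each of these comparisons.

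**Figure D1:**
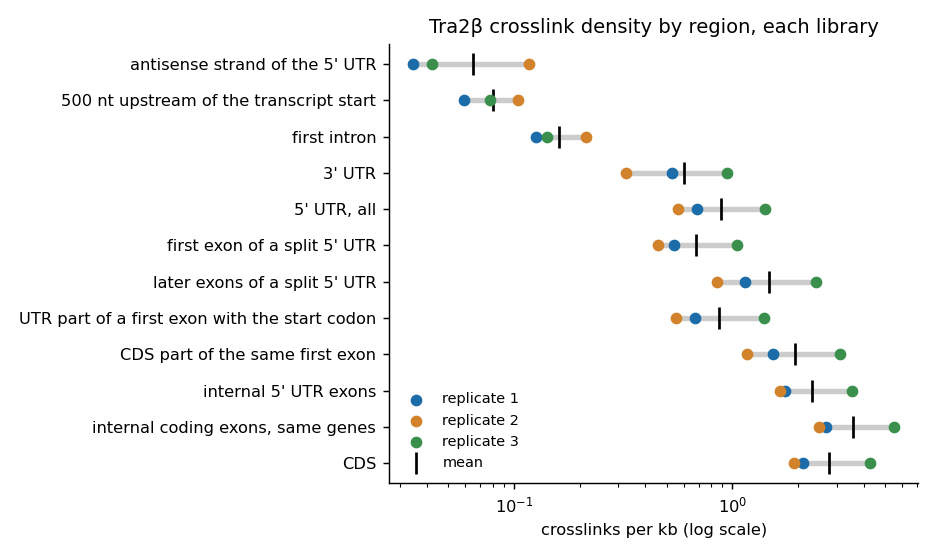
Crosslinks per kb (log axis) in 12 kinds of region, with 1 point per library and a bar at the mean of 3 libraries. The 5' UTR points lie between 0.561 and 1.41, all above the upstream, antisense and first intron points and all below the CDS points of the same library.

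Tra2β crosslinks appeared at the annotated transcript start and grew denser further into the 5' UTR. In the farthest 100 nt of the upstream sequence the mean density was 0.0625 ± 0.0312 per kb (SD, n = 3), and in the last 10 nt upstream it was 0.181 ± 0.0571. In the first 10 nt of the transcript it was 0.485 ± 0.195, with 0.362, 0.382 and 0.710 in replicates 1, 2 and 3. It reached 0.928 ± 0.572 from 51 to 100 nt and 1.03 ± 0.603 from 101 to 200 nt, and was 0.869 ± 0.324 beyond 500 nt. In replicate 1 the first 10 nt were at 0.362 and nt 101 to 200 at 0.806, in replicate 2 at 0.382 and 0.570, and in replicate 3 at 0.710 and 1.71. The 3 libraries thus had the same direction. Windows further in are filled by longer 5' UTRs, so the 5873 genes with at least 300 nt of 5' UTR in exon 1 were also followed on their own. There the density was 0.313 ± 0.114 per kb in the first 10 nt and 0.696 ± 0.314 from 251 to 300 nt. Replicate 1 went from 0.188 to 0.495 and replicate 3 from 0.341 to 1.06, while replicate 2 went from 0.409 to 0.536 with 24 crosslinks in the first window.

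**Figure D2:**
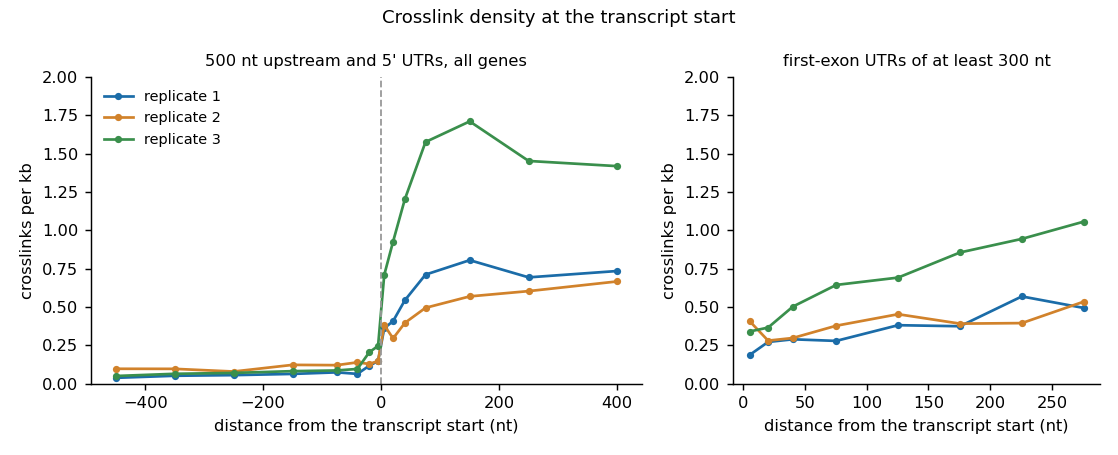
Crosslinks per kb against distance from the annotated transcript start in nt, 1 line per library, for all genes (left) and for 5873 genes with at least 300 nt of 5' UTR in the first exon (right). In the left panel density steps up at the start in each library and is highest from 101 to 200 nt in replicates 1 and 3, and in the right panel replicate 3 climbs to 1.06 from 251 to 300 nt.

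Density rose from the 5' UTR into the CDS without a peak shared by the libraries at the start codon itself. In 13421 genes with at least 150 nt on each side, the mean density in successive 50 nt windows was 1.06, 1.41 and 1.68 per kb before the start codon and 2.04, 2.26 and 2.51 per kb after it. The last 50 nt of 5' UTR had 1.28, 0.983 and 2.78 per kb in replicates 1, 2 and 3, and the first 50 nt of CDS 1.53, 1.29 and 3.29. The CDS side was thus higher in 3 of 3 libraries. The 9 nt from 3 before to 5 after the first base of the start codon, where the scanning ribosome halts, were at 1.46, 1.40 and 2.45 per kb. In replicates 1 and 2 this lay between, or above, the neighbouring windows, and in replicate 3 below them.

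The profile was also drawn in separate sets of genes, by the exon that holds the start codon. Genes with the start codon in exon 1 and a junction within 150 nt were in neither set. In 2625 genes with the start codon in exon 1 and no junction within 150 nt, the density was 1.22 ± 0.690 per kb (SD, n = 3) in the last 50 nt of 5' UTR and 1.29 ± 0.651 in the first 50 nt of CDS. Replicate 1 was at 1.02 and 0.907, replicate 2 at 0.649 and 0.922, and replicate 3 at 1.99 and 2.04, so the libraries differed in direction. In 6549 genes with the start codon in a later exon, the density was 1.06 ± 0.592 from 150 to 101 nt before the start codon, 1.95 ± 1.17 in the last 50 nt and 2.24 ± 1.21 in the first 50 nt of CDS. Replicate 1 rose from 0.845 to 1.48 over the 5' UTR windows, replicate 2 from 0.603 to 1.096 and replicate 3 from 1.73 to 3.29. In these genes the windows further upstream hold more first-exon bases.

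**Figure D3:**
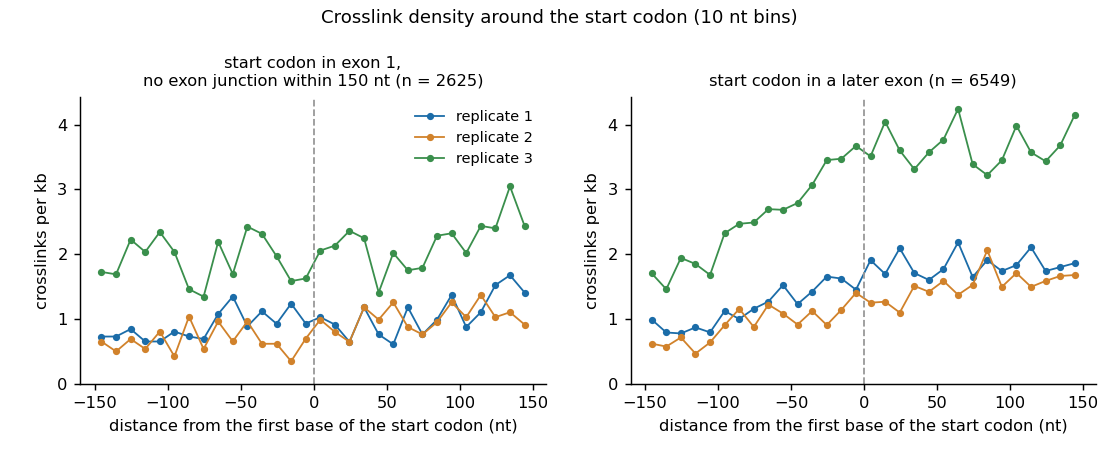
Crosslinks per kb in 10 nt bins against distance from the first base of the start codon in nt, 1 line per library, for genes with the start codon in an uninterrupted first exon (left, n = 2625) and in a later exon (right, n = 6549). The left lines show no common step at the start codon, and the right lines climb within the 5' UTR before reaching it.

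First 5' UTR exons were less densely crosslinked than the later 5' UTR exons of the same genes. Among 7546 genes whose 5' UTR spans 2 or more exons, the first exon had 0.542, 0.457 and 1.05 crosslinks per kb, the later 5' UTR exons 1.15, 0.849 and 2.43, and the CDS 2.04, 1.90 and 4.09. The log2 ratio of first to later exons was -1.06 ± 0.16 (SD, n = 3), and -1.51 ± 0.22 when stratified by gene. Stratified by gene, the first exon was at 0.299-, 0.289- and 0.291-fold the CDS density, and the later 5' UTR exons at 0.931-, 0.736- and 1.01-fold. Later 5' UTR exons were therefore near the density of the CDS in replicates 1 and 3 and lower in replicate 2. In pooled sums, which weight genes by length, they were at 0.562-, 0.446- and 0.593-fold. In the 839 genes with a wholly untranslated internal exon, such exons held 1.73, 1.65 and 3.53 crosslinks per kb, against 2.69, 2.50 and 5.51 in internal coding exons. The stratified fold was 0.858, 0.825 and 0.846, a log2 ratio of -0.25 ± 0.03 (SD, n = 3) against -0.63 ± 0.03 in pooled sums.

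Single genes were compared with edgeR's quasi-likelihood test, with library as a block and Benjamini-Hochberg adjustment. Among the 42 genes with at least 20 crosslinks in first and later 5' UTR exons together, 16 (38.1%) were called. Of these, 15 (35.7%) were lower in the first exon and 1 (2.38%) was higher, and the median log2 fold was -1.74. Lyar, a nucleolar cell growth regulator, had 8, 1 and 27 crosslinks in the 675 nt of exon 1 and 6, 0 and 62 in the 49 nt of exon 2, a log2 fold of -4.35 ± 0.43 (SE, edgeR adjusted p = 9.79e-15). Most of its exon 2 crosslinks came from replicate 3. Arl4a, an ARF-like GTPase, had no crosslink in 405 nt of exon 1 and 10, 0 and 13 in 87 nt of exon 2. In 1700019D03Rik the counts were 0 in 542 nt and then 9, 1 and 14 in 167 nt, and in 4932414N04Rik 0 in 151 nt and then 15, 19 and 28 in 657 nt. Rdx, which encodes the membrane linker radixin, had 0, 0 and 8 in 632 nt and 4, 4 and 16 in 60 nt. Sgms1, a sphingomyelin synthase, had 0, 0 and 1 in 861 nt and 5, 6 and 12 in 494 nt. Tsbp1 was the exception, with 1, 4 and 11 crosslinks in 51 nt of exon 1 against 10, 4 and 49 in 417 nt of later exons (log2 fold 1.14 ± 0.40, SE, edgeR adjusted p = 0.0408). It lost the call without replicate 1 (edgeR adjusted p = 0.17) or replicate 2 (adjusted p = 0.3). Much of these 5' UTRs lies in introns of other transcripts or exons of other genes, 83.8% of bases in Lyar, 82.3% in Arl4a, 76.4% in 1700019D03Rik and 93.8% in Rdx, and use of the annotated first exon in testis was not measured. Without replicate 1 there were 7 calls and without replicate 3 there were 4, all lower, and scaled by TMM, which sets the typical gene to 0, the split was 9 lower and 8 higher.

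Within first exons that hold the start codon, the untranslated part was less dense than the coding part. Over 12677 genes the UTR part had 0.677, 0.549 and 1.39 crosslinks per kb and the CDS part 1.54, 1.16 and 3.10. The log2 ratio was -1.14 ± 0.05 (SD, n = 3), and -0.96 ± 0.25 when stratified by gene. Of 191 genes tested by edgeR, 29 (15.2%) were lower in the UTR part and 1 (0.524%), Prdx6b, was higher. Of the 29, Zfp91 and Gm44505 share their bases and have the same counts, which leaves 28 separate regions. Of the lower genes, 3 had no crosslink in the UTR part. Tdrd6, which encodes a chromatoid body protein, had 98, 89 and 239 crosslinks in the CDS part, Cypt12 29, 3 and 48, and St6galnac2 23, 7 and 15. Without replicate 1 there were 2 calls and without replicate 3 there were 4. Prdx6b, Tdrd6 and Cypt12 lost the call without either of these (edgeR adjusted p from 0.226 to 0.616), and St6galnac2 without replicate 1 (0.141). In a later exon that holds the start codon, the UTR part had 1.20, 0.727 and 2.53 crosslinks per kb and the CDS part 1.11, 1.02 and 2.05. Its log2 ratio of -0.02 ± 0.41 (SD, n = 3), or -0.19 ± 0.50 when stratified, differed in direction between libraries.

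Gene by gene, 5' UTRs were mostly below the CDS. Of 2832 genes with at least 20 crosslinks in both regions together, 487 (17.2%) were lower in the 5' UTR and 7 (0.247%) higher by edgeR's quasi-likelihood test at an adjusted p under 0.05. The median log2 fold was -1.87. In 805 of the 2832 the 5' UTR had no crosslink and the fold can only be bounded, and with a limit of 3 counts for these the median was -0.85. In the 2027 with a 5' UTR crosslink the median was -1.14 and 1687 were below 0. Of the 487, 468 were lower in all 3 libraries. The other 17947 5' UTRs were too sparse or too short to test. There were 64 calls without replicate 1, 412 without replicate 2 and 27 without replicate 3. Of the 487, 6 share 5' UTR bases with another of them (Eif5 with Gm58608, Gpbp1 with Gm49496 and Zfp91 with Gm44505), which leaves 484 separate regions. None of the 494 changed sign where it could be tested without a library.

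**Figure D4:**
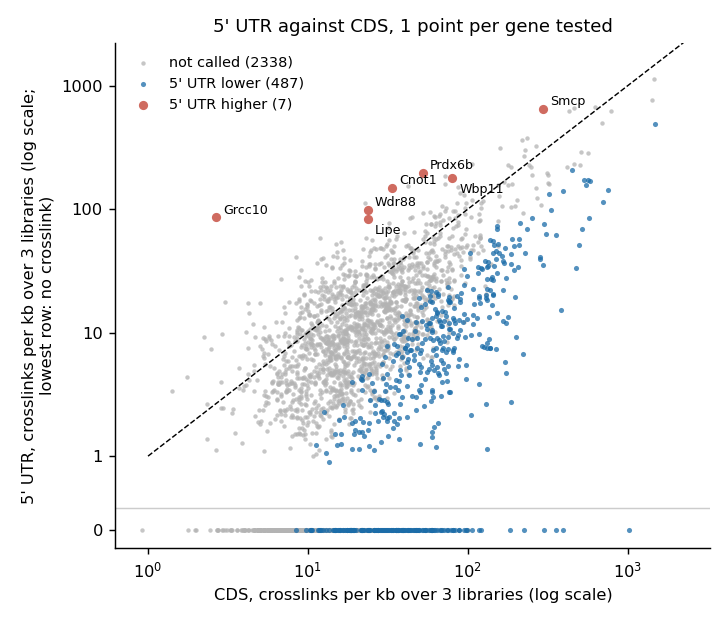
Crosslinks per kb over the 3 libraries in the 5' UTR against the CDS (log axes), 1 point per gene tested, with 5' UTRs without a crosslink in the lowest row and equal density on the dashed line. The 7 genes called higher are named, and the 487 called lower lie well below the line.

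The 7 genes called denser in the 5' UTR, of 340 tested with a log2 fold above 0, were mostly of different kinds. Cnot1, the scaffold of the CCR4-NOT deadenylase, had 7, 6 and 37 crosslinks in 336 nt of 5' UTR and 53, 16 and 170 in 7128 nt of CDS, a log2 fold of 2.14 ± 0.41 (SE, edgeR adjusted p = 7.32e-06). All 3 libraries had the same direction. Its crosslinks included 5, 4 and 30 in the later exon and 2, 2 and 7 in the first. Smcp, a mitochondrial capsule protein of sperm whose messenger RNA is stored in spermatids, had 49, 7 and 75 in 202 nt against 37, 11 and 79 in 429 nt (log2 fold 1.105 ± 0.37, SE, edgeR adjusted p = 0.0207). Wbp11, a splicing factor, had 11, 2 and 33 in 259 nt against 39, 9 and 106 in 1923 nt. Lipe, the hormone-sensitive lipase, had 8, 2 and 6 in 194 nt against 16, 21 and 39 in 3216 nt, and Wdr88 had 4, 5 and 5 in 142 nt against 13, 9 and 18 in 1695 nt. Prdx6b had 20, 1 and 53 in 377 nt against 7, 0 and 28 in 672 nt. It is a copy of the peroxiredoxin gene Prdx6, and how reads that fit both were placed was not given in the sources used here, so its value is uncertain. Without replicate 1, Smcp, Wbp11, Lipe, Wdr88 and Prdx6b lost the call (edgeR adjusted p from 0.188 to 0.564). Without replicate 3 these genes and Cnot1 lost it (0.159 to 0.558), and without replicate 2 Wdr88 did (0.178).

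Grcc10 had the highest fold, 4.62 on the log2 scale, from 3, 26 and 8 crosslinks in 431 nt of 5' UTR and 0, 1 and 0 in 378 nt of CDS. However, the gene of the U7 small nuclear RNA, Rnu7, which acts in histone RNA processing, lies inside this 5' UTR on the same strand, at chr6:124718188-124718249. Its 62 bases held 2, 26 and 8 of those crosslinks, which left 1 elsewhere in the 5' UTR. The 35 crosslinks of the window shown above all lie in Rnu7. Over all genes, 57 5' UTRs held an annotated small RNA gene on the strand, and 7 of them had a crosslink there, 12, 32 and 22 in replicates 1, 2 and 3. After Rnu7 the most were 9, 0 and 12 in Gm54730, a predicted miRNA in the 5' UTR of the chaperone gene Hsp90b1.

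Of the 487 lower genes, 151 (31.0%) had no 5' UTR crosslink in any library, near the 805 of 2832 (28.4%) among all genes tested. Akap12, a scaffold for protein kinase A, had 1506, 295 and 3082 crosslinks in the CDS and 0 in 140 nt of 5' UTR, which with a limit of 3 counts over the libraries is at least 47.4-fold lower. Eif4g1, the scaffold of the cap-binding complex, had 109, 103 and 210 in the CDS and 0 in 1151 nt, at least 33.9-fold lower. Tulp2 was at least 28.9-fold lower with 0 in 221 nt, Rpgrip1 at least 11.9-fold with 0 in 295 nt, and Ccdc136 at least 11.01-fold with 0 in 110 nt. Also among the 10 lowest folds were Baz1a, Acin1, Tdrd6 and Ranbp2, at least 9.45-, 4.98-, 3.28- and 2.93-fold lower. These 4 and Ccdc136 lost the call without replicate 3 (edgeR adjusted p from 0.0512 to 0.281), and Tdrd6 and Ranbp2 also without replicate 1 (0.0964 and 0.122).

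Which 5' UTR of these genes is used in testis was not measured here. The whole canonical 5' UTR of Akap12, Ccdc136 and Eif4g1 lies in an intron of another transcript or an exon of another gene. The share of such bases was 94.6% in Rpgrip1, 92.3% in Baz1a, 44.8% in Tulp2 and 0% in Acin1, Tdrd6 and Ranbp2. Over all 5' UTR bases it was 30.5%. The other 5' UTRs of Akap12 held 30, 2 and 61 crosslinks in 683 nt, 7.45-fold less dense than its CDS. Those of Tulp2 held 1, 0 and 18 in 436 nt, 8.99-fold less dense. Of the 151 called genes without a crosslink, 88 (58.3%) had other 5' UTR bases, against 1560 (55.1%) of all genes tested. Of these, 55 and 858 had a crosslink there. Over the 9765 genes with other 5' UTR bases, those bases were at 0.160-, 0.205- and 0.130-fold the CDS density when stratified by gene. The canonical 5' UTR was at 0.382-, 0.343- and 0.395-fold over all genes.

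The 10 5' UTRs with the most crosslinks together held 6.59% of crosslinks summed over 5' UTRs, and several belong to genes known from germ cells. BC005537 had 56, 50 and 56 in 2201 nt of 5' UTR and 31, 43 and 31 in 687 nt of CDS, similar raw counts in 3 libraries of unlike depth. Its 5' UTR was lower than its CDS (log2 fold -1.04 ± 0.36, SE, edgeR adjusted p = 0.0289). Phf7, a reader of histone marks in male germ cells, had 41, 8 and 81 in 781 nt against 41, 3 and 110 in 921 nt. Txndc2, a sperm thioredoxin, had 28, 2 and 96 in 187 nt against 264, 11 and 756 in 1650 nt. Neither of these differed by the test, with edgeR adjusted p = 0.783 for Phf7 and 0.88 for Txndc2.

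Nasp, a histone chaperone, had 24, 9 and 70 in 598 nt and was lower than its CDS (log2 fold -1.85 ± 0.36, SE, edgeR adjusted p = 1.18e-05). Spa17, a sperm surface protein, had 27, 1 and 73 in 205 nt and was lower (-1.70 ± 0.38, edgeR adjusted p = 0.000188), as were Lyar (-2.77 ± 0.37) with 14, 1 and 89 in 724 nt and Tsbp1 (-2.01 ± 0.36) with 11, 8 and 60 in 468 nt. Tspan6 had 36, 1 and 52 in 135 nt and Fhl4 29, 9 and 44 in 843 nt, with log2 folds of 0.62 ± 0.38 and 0.45 ± 0.38 that did not pass. In 9 of these 10, replicate 2 held fewer than 10 crosslinks, and in Lyar, Spa17 and Tspan6 it held 1. Without replicate 1 the calls of BC005537, Nasp, Spa17 and Tsbp1 were lost (edgeR adjusted p from 0.0679 to 0.345), and without replicate 3 those of BC005537, Nasp and Spa17 (0.0853 to 0.461).

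Gene groups were counted beside the 17.2% lower and 0.247% higher of all genes tested. Among SR proteins and SR-related proteins, 5 of 10 tested were lower in the 5' UTR and 0 were higher. The median log2 fold was -2.90, or -2.45 with the gene without a 5' UTR crosslink at its limit. Over all genes tested these medians were -1.87 and -0.85. Son had 1, 0 and 0 crosslinks in 847 nt of 5' UTR and 92, 88 and 223 in the CDS (log2 fold -5.61 ± 0.81, SE, edgeR adjusted p = 1.45e-09). Srsf2 had 2, 0 and 3 in 757 nt, Srsf1 1, 0 and 3 in 536 nt, Srsf7 1, 0 and 0 in 248 nt and Srsf11 none in 68 nt. Tra2a, with 2, 2 and 3 in 210 nt and 6, 17 and 9 in the CDS, was not called (log2 fold -0.14 ± 0.84, edgeR adjusted p = 0.916). Tra2b itself was too sparse to test, with 0, 0 and 1 in the 5' UTR and 0, 3 and 6 in the CDS. Son was called with any replicate left out, whereas the 4 Srsf genes lost the call with each (edgeR adjusted p from 0.0616 to 0.302).

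Of 19 translation factors tested, 6 were lower and 0 higher, with a median log2 fold of -0.91. Besides Eif4g1 these were Eif5 with 1, 1 and 1 crosslinks in 407 nt, Eef1d with none in 903 nt, and Eif4g3, Eif5b and Eif4g2. The 5' UTRs of Eif4g1, Eif5 and Eef1d lie wholly in introns of other transcripts or exons of other genes. The share of such bases was 59.0% in Eif4g2 and 0% in Eif4g3 and Eif5b. Of 28 tested genes of the translationally delayed spermatid group, 4 were lower and 1, Smcp, was higher. The median was -0.82, or -0.68 at the limits. The group includes genes for the sperm tail, acrosome and chromatin, but not only these. Ldhc and Pgk2, also in it, were counted among the spermatocyte markers too. Odf2, of the outer dense fibres, had 24, 4 and 28 in 1095 nt and a log2 fold of -3.22 ± 0.37 (SE, edgeR adjusted p = 8.52e-15). Hspa4l, Ropn1l and Ldhc were lower too. The share of 5' UTR bases in such introns or exons was 100% in Odf2, 93.4% in Ldhc, 82.0% in Hspa4l, 35.6% in Smcp and 0% in Ropn1l. Without replicate 1 or 3, Eif4g3, Eif5b, Eif4g2, Smcp, Ropn1l and Ldhc lost the call (edgeR adjusted p from 0.188 to 0.523), as did Eif5 without replicate 3 (0.181). The protamine and transition protein genes, which package sperm chromatin, were not called. Prm2 had 24, 6 and 40 in 113 nt against 43, 27 and 67 in the CDS, and Prm1 14, 4 and 27 in 155 nt against 31, 14 and 33.

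In the meiosis group 2 of 12, Sycp1 and Sycp2 of the synaptonemal complex, were lower and 0 higher, with a median of -1.55, or -1.002 at the limits. None of 4 uORF-regulated genes was called. Of 77 ribosomal protein genes with a 5' UTR, 23 had a crosslink there, 19, 6 and 40 in the 3 libraries, and Rpl4 alone could be tested (log2 fold 0.59, not called). Of 9 genes named by the study and tested, Nasp and Ggnbp2 were lower, the latter with 2, 4 and 5 in 325 nt against 101, 27 and 301 in the CDS. The share of 5' UTR bases in introns of other transcripts or exons of other genes was 93.6% in Nasp and 57.8% in Ggnbp2. It was 3.57% in Sycp1 and 0% in Sycp2. Without replicate 1 or 3, Sycp1, Sycp2, Nasp and Ggnbp2 lost the call (edgeR adjusted p from 0.0782 to 0.347), and without replicate 2 Sycp2 did (0.109).

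Against the 3' UTR the picture was mixed. Summed over 20515 genes, the 5' UTR was denser in 3 of 3 libraries, by 1.302-, 1.72- and 1.49-fold. Stratified by gene the fold was 0.940, 1.55 and 1.01, so the direction was not shared. Of 849 genes tested by edgeR, 65 (7.66%) were higher in the 5' UTR and 33 (3.89%) lower, with a median log2 fold of -0.13, which turned to 0.36 with a limit of 3 counts for the regions without a crosslink. Without replicate 1 there was 1 call and without replicate 3 there were 0. Under TMM scaling the split turned to 33 higher and 88 lower. Mns1, a sperm tail and meiosis protein, had 11, 2 and 33 crosslinks in 142 nt of 5' UTR against 6, 0 and 40 in 3632 nt of 3' UTR, and Meig1, needed for sperm formation, 10, 1 and 26 in 188 nt against 0, 0 and 1 in 351 nt. These 2 genes were picked after their values were seen.

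Around 5' UTR crosslinks GAA was somewhat more frequent than expected. A GAA lay within 15 nt of 40.005%, 46.0% and 42.0% of 5' UTR crosslinks in replicates 1, 2 and 3, against 36.7%, 36.0% and 37.0% expected from all positions of the same 5' UTRs. The ratios were 1.09, 1.28 and 1.14, a mean of 1.17 ± 0.10 (SD, n = 3), and the CDS of the same genes gave 1.11, 1.26 and 1.07. GAA ranked 9 of 64 trinucleotides by mean ratio. The highest were ATT (1.27), TAT (1.23) and ATA (1.22), and the lowest was CGC (0.816).

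Density rose with the number of GAA nearby in both regions, and the gap to the CDS was widest at positions with the most GAA within 15 nt. With 0, 1, 2 and 3 or more GAA within 15 nt, the mean 5' UTR density was 0.784, 0.948, 1.29 and 2.23 per kb, and the mean CDS density 1.85, 2.89, 4.58 and 9.49 per kb. The log2 ratio of 5' UTR to CDS was -1.24 ± 0.04, -1.64 ± 0.09, -1.84 ± 0.07 and -2.08 ± 0.06 (SD, n = 3) in the same order. At 3 or more GAA the 5' UTR had 1.69, 1.83 and 3.15 per kb in replicates 1, 2 and 3. Only 1.68% of 5' UTR bases were in that class, against 3.51% of CDS bases. By local G+C content, the log2 ratio went from -2.10 ± 0.21 where fewer than 40% of bases were G or C to -0.54 ± 0.21 at 70% or more. The latter class held 28.0% of 5' UTR bases and 5.53% of CDS bases. In the sparsest class the 5' UTR density was 0.489, 0.546 and 0.929 per kb, against 0.732, 0.908 and 1.16 in the CDS.

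**Figure D5:**
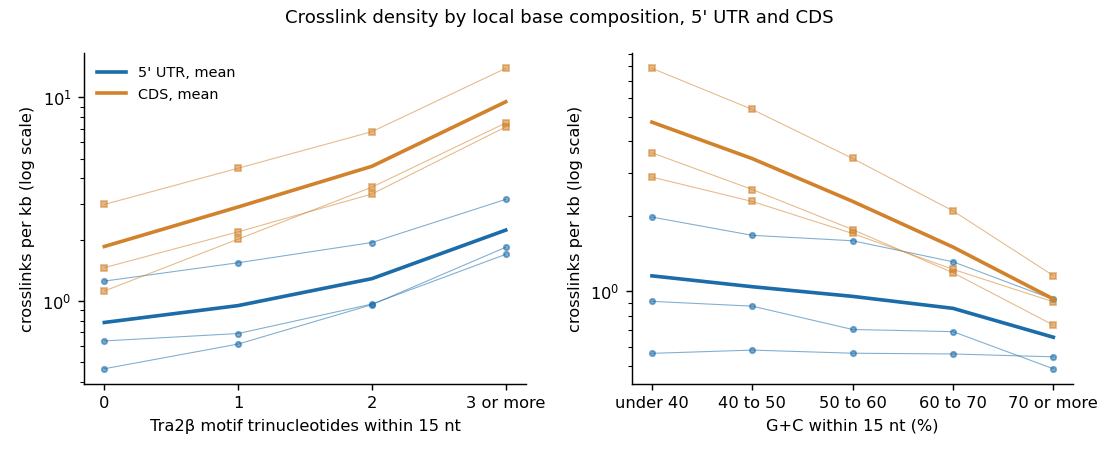
Crosslinks per kb (log axes) in 5' UTR (circles) and CDS (squares) by the number of GAA, the Tra2β motif, within 15 nt (left) and by the share of G and C within 15 nt (right). Thin lines are the 3 libraries and thick lines their mean, and the CDS mean lies above the 5' UTR mean in every class.

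Whole 5' UTRs differed by length in their ratio to the CDS, and by upstream start codons in density. The median 5' UTR was 211 nt long (quartiles 109 and 388) with 60.6% G+C. Over the 5' UTRs of at least 30 nt, the log2 ratio to the CDS was -1.20 ± 0.44 (SD, n = 3) in the 5039 shortest 5' UTRs, up to 117 nt, and -1.91 ± 0.09 in the 5039 longest, from 395 nt. Replicates 1 and 3 had this direction by a wider margin than replicate 2, at -1.68 and -1.88. The 12689 5' UTRs with an upstream ATG had 0.652, 0.546 and 1.31 crosslinks per kb and the 7467 without one 0.864, 0.623 and 1.84. Their median lengths were 307 and 122 nt, so the presence of an ATG and length cannot be told apart here. By the G+C content of the whole 5' UTR, the log2 ratio was -1.40 ± 0.18 in the 5039 lowest and -2.05 ± 0.21 in the 5039 highest. The mean 5' UTR density was nearly the same in these, at 0.806 and 0.787 per kb, whereas the CDS density was 2.05 and 3.34 per kb. The libraries differed in direction in the 5' UTR density. It was 0.668 and 0.581 in replicate 1, 0.409 and 0.650 in replicate 2, and 1.34 and 1.13 in replicate 3. The direction of the log2 ratio was opposite to that by G+C within 15 nt. By purine content it was -1.71 ± 0.20 in the 5039 poorest and -1.29 ± 0.04 in the 5039 richest in purines. Ranked by GAA per 100 nt of the whole 5' UTR, the log2 ratio was -1.85 ± 0.10 in the 5039 poorest and -1.29 ± 0.16 in the 5039 richest. The poorest were at -1.89, -1.93 and -1.74 in replicates 1, 2 and 3, and the richest at -1.25, -1.46 and -1.14. The gap to the CDS was thus narrower in the GAA-rich 5' UTRs, opposite to the direction by GAA within 15 nt.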

How the data were processed

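In 3 libraries of 1 group the authors counted unique cDNAs at each crosslinked nucleotide, by strand, with the iMAPS pipeline. The deposited values are these raw counts, not normalised and not pooled. The submitters' processing notes name Trim Galore 0.6.7, Bowtie 1.3.1, STAR 2.7.9a, UMI-tools 1.1.2 and the build mm39, which is GRCm39, and all positions fitted that build. How multi-mapping reads were handled was not given in the sources used here, and this could move counts between near-identical copies.

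Crosslinks were summed by strand over canonical transcripts of GENCODE vM39 with Python 3.11.15, numpy 2.4.6, pandas 2.3.3 and scipy 1.17.1, and figures drawn with matplotlib 3.10.9. Each library total is given in the text. Intervals and limits (3 counts) cover counting error only. Region pairs of a gene were tested with edgeR 4.0.16 (R 4.3.3), a quasi-likelihood fit on counts with library as a block and an offset of the log of region length times library total, for genes with at least 20 crosslinks and regions of at least 30 nt. The numbers pair the 2 regions because both come from the same library. The spread was shared across genes of like abundance, since edgeR found an infinite prior degree of freedom. Stratified ratios are Mantel-Haenszel rate ratios over genes. Expected trinucleotide shares were the mean over all positions of the same 5' UTRs, weighted by their crosslinks.

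Alternatives were each replicate left out, DESeq2 1.42.0, exact binomial tests per library, TMM, a minimum of 50 or 3 crosslinks, positions counted once, no block, no overlapping annotation, no edges (30 nt) and no top 10 genes. Stratified ratios and ratios over 5' UTRs of all transcripts were added after seeing the data.

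The members, gene groups and markers were chosen with earlier results of these data known. Named genes were the 10 5' UTRs with the most crosslinks, the 10 highest and 10 lowest called folds against the CDS with the same direction in all libraries, the 5 highest and lowest called for first against later exons, the 3 highest and lowest called within exon 1, called members of the gene groups and the genes named by the study. Of the 10 lowest folds, 1 is not reported here. Counts by exon are also given for Cnot1 and Lyar, which were both called lower in the first exon. The edgeR p-values rest on the spread left after the library block, which was shared across genes of like abundance. They do not measure how far a single gene varied between these 3 libraries, and they cover these libraries only.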

Additional observations from a re-analysis of the deposited data

How the results depend on the processing

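The log2 ratio of 5' UTR to CDS was -1.66. It was -1.42 when stratified by gene and -2.05 over the 5' UTRs of all protein-coding transcripts, and ranged from -1.69 to -1.61 with a replicate left out. The ratio of first to later 5' UTR exons was -1.06, -0.79 without the edges and -1.51 when stratified, with -1.14 to -0.99 with a replicate left out. The ratio within exon 1 was -1.14, -1.20 without the top 10 genes, -1.23 without the edges and -0.96 when stratified, with -1.17 to -1.12 with a replicate left out. The mean share of crosslinks in 5' UTRs was 1.21% ± 0.620 (SD, n = 3), 0.910% to 1.53% with a replicate left out, 0.831% without overlapping annotation and 1.82% over the 5' UTRs of all protein-coding transcripts. The GAA ratio was 1.11 to 1.21 with a replicate left out. Calls against the CDS numbered 494, and 27 to 412 with a replicate left out, 243 with DESeq2, 21 with exact binomial tests, 185 with TMM (12 higher, 173 lower), 190 with no replicate block and 230 without overlapping annotation. Calls against the 3' UTR numbered 98, and 0 to 110 with a replicate left out, 3 with exact binomial tests, 62 at a minimum of 50 crosslinks, 6 with no replicate block and 49 without overlapping annotation. At 0 calls, without replicate 3, 15 genes had an unadjusted edgeR p under 0.05. First against later exons gave 16 calls, and 4 to 14 with a replicate left out, 2 with exact binomial tests, 6 at a minimum of 50, 25 at a minimum of 3 and 0 with no replicate block, where 10 had an unadjusted edgeR p under 0.05. Too few genes were left there without overlapping annotation. Within exon 1 there were 30 calls, and 2 to 25 with a replicate left out, 1 with exact binomial tests, 17 with TMM (3 higher, 14 lower), 17 at a minimum of 50, 16 without overlapping annotation and 0 with no replicate block, where 13 had an unadjusted edgeR p under 0.05. In the 4 comparisons of regions, no call changed sign under any alternative that could test it. Phf7, not called, turned to -0.0057 in the exact binomial setting and ranged from -0.035 (without replicate 2) to 0.58 with a replicate left out. Tra2a, not called, turned to 0.39 with TMM and ranged from -0.46 to 0.42 (without replicate 2). Of the other values of named genes under an alternative, 394 kept their side of the threshold, 186 lost the call and 3 gained one. Depth is a limit: 113 of 20779 5' UTRs had at least 20 crosslinks, and a 5' UTR without a crosslink can only be bounded. The libraries have no matched input, so a contact of Tra2β cannot be told apart from other RNA carried through the pull-down, beyond the upstream, antisense and intron values measured here.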
